A study of Mus musculus with 8 samples.

Results

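A set of 4 noncoding RNAs and 6 proteins that work with them were followed through RNA-seq counts of total bone marrow (BM) from Gfi1 mutant mice. The RNAs were Rn7sk, Rmrp, Rpph1 and Terc, and the proteins were Larp7, Mepce, Hexim1, Pop1, Rpp30 and Dkc1. The 10 genes were listed by name out of 41214 genes counted, and all 10 were found by their identifiers. The RNAs were listed because earlier work on these counts had found them high in sick KD mice, so their levels in sick KD mice are described here without a test. The proteins were listed as partners of these RNAs and were tested.

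The study asked what a reduced dose of Gfi1, a transcriptional repressor of myeloid differentiation, does to BM cells in comparison with its loss. All 8 mice were on the C57Bl6 strain, and each group held 2 of them. KD mice carry a human GFI1 cDNA knocked into the Gfi1 locus, with a floxed neo cassette in antisense that lowers its expression, while KO mice lack Gfi1. Ages were 39 and 42 days in the young KD group, 48 and 44 days in the young KO group, 158 and 101 days in the old KO group, which had no disease, and 187 and 78 days in the sick KD group. The labels give AML for the sick KD mice, while the study describes a myeloproliferative disease, and the name sick KD is used here. No wild-type mouse and no mouse with normal knock-in expression was among these libraries, so a KD value is only ever set against KO or young KD. Sick KD and old KO mice differ in both genotype and disease, and sick KD and young KD mice in both age and disease. Within each comparison these cannot be told apart. BM was not sorted, and in such bulk samples fewer cells of a type and less RNA per cell cannot be told apart.

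7SK RNA, the product of Rn7sk, holds the elongation kinase P-TEFb in an inactive particle, in which Larp7 and the capping enzyme Mepce protect the RNA and Hexim1 blocks the kinase. Rpph1 is the catalytic RNA of RNase P, which trims the leader off transfer RNA precursors, and Rmrp is the related RNA of RNase MRP, which acts on the ribosomal RNA precursor. Both RNAs share most of their proteins, Pop1 and Rpp30 among them. Terc is the template RNA of telomerase and is bound by dyskerin, the product of Dkc1, like other RNAs of the box H/ACA class. Rn7sk, Rmrp and Rpph1 are transcribed by RNA polymerase III and Terc by RNA polymerase II, and none of the mature RNAs is known for a long poly(A) tail. The libraries were made with a kit that selects poly(A) RNA.

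The sequences are shown to give the A tracts of RNAs counted in a poly(A) library and the letters that each is known for. They are GENCODE M21 transcripts on GRCm38, 5′ to 3′, and all lie on the minus strand. Rmrp is shown whole and the others by their first 300 bases. Capitals in Rn7sk, at chr9:78175303-78175633, mark every GATC in the stretch shown. Hexim1 binds such letters in the first hairpin of 7SK, and which of the marked copies it binds was not tested. Capitals in Rmrp, at chr4:43492788-43493058, and in Rpph1, at chr14:50807449-50807767, mark GGGAANGTC, a stretch of the conserved core that both RNAs hold. Capitals in Terc, at chr3:96414437-96414859, mark CTAACCCT in the template for the telomere repeat.
Rn7sk: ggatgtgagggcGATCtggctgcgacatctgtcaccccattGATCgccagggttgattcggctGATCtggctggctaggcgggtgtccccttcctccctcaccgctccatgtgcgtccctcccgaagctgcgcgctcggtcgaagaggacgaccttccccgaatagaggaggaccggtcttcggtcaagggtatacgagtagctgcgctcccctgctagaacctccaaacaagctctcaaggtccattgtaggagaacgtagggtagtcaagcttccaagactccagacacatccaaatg
Rmrp: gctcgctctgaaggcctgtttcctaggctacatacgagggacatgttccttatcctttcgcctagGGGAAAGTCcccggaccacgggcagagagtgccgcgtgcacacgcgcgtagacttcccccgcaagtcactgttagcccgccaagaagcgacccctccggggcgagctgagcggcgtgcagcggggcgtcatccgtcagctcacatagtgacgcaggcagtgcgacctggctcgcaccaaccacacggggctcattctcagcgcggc
Rpph1: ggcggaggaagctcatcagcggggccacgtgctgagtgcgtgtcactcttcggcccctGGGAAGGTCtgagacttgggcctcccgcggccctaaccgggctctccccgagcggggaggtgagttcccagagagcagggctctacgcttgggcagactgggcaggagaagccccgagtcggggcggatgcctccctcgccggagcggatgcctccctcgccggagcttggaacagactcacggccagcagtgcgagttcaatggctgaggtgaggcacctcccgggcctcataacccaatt
Terc: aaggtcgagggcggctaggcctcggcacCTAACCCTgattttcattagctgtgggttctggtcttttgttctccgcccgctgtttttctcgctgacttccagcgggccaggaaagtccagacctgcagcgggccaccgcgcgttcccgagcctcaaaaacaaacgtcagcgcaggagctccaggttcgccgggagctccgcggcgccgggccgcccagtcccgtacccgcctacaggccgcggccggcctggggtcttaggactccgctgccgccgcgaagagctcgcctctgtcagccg

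Rn7sk is 331 bases long and has GATC at positions 13, 42 and 64, counted from its first base. Among 17896 annotated transcripts of 200 to 450 bases, 10.7% hold GATC at least 3 times on the given strand. GGGAANGTC starts at position 66 of the 271 bases of Rmrp and at position 59 of the 319 bases of Rpph1, and 0.71% of the same transcripts hold it. In a global alignment Rmrp and Rpph1 were identical at 51.8% of the columns, and their longest shared run was 9 bases. The template letters of Terc start at position 29 of its 423 bases, and 0.508% of the transcripts hold them. The RefSeq transcript of Terc starts 26 bases later and is 397 bases long. The longest run of A was 3 bases in Rn7sk, 3 in Rmrp, 2 in Rpph1 and 5 in Terc, and 34.2% of the transcripts hold a run of 5 or more. None of the 4 RNAs holds AATAAA, the usual polyadenylation signal, which 14.4% of the transcripts hold.

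The mouse Gfi1 gene stood at 5.49 to 7.15 counts per 1000000 (CPM) in the 4 libraries labelled KD and at 13.3 to 29.7 CPM in the 4 labelled KO. KD mice express a human cDNA from that locus, and the part of Gfi1 that KO mice lack is not given in the sources used here. These counts therefore do not check the labels, and every direction between KO and KD rests on them. Counts on genes ran from 26642067 to 42679114 per library. Both sick KD libraries stood apart from the others in several ways that bear on the RNAs. Of the uniquely mapped reads, 42.0% and 38.8% fell outside annotated genes in sick KD mice, against 26.9% to 33.8% in the other 6 libraries. The share of mitochondrially encoded genes was 1.42% and 1.16%, against 0.464% to 0.787%. Genes of other small noncoding RNA classes took 0.436% and 0.587%, against 0.181% to 0.234%. Multi-mapped reads, which were tallied apart from the genes, numbered 45056950 and 56501078 in sick KD mice, beside 26642067 and 30139409 counts on genes. In the other 6 libraries they numbered 29299324 to 47000865, beside 27515379 to 42679114 counts on genes. The cell makeup differed as well. The summed level of 6 erythroid markers was 639 and 979 CPM in sick KD mice against 1432 to 4659 CPM, that of 6 B cell markers 34.6 and 76.1 CPM against 103 to 611 CPM, and that of 10 neutrophil markers 9213 and 7376 CPM against 4041 to 5381 CPM. The neutrophil sum rested on a few abundant genes such as Mpo and S100a8. Of the 10 markers, 4 had both sick KD libraries above the other 6, and 4 and 3 were called higher by edgeR against old KO and young KD mice. The other 6 markers, among them S100a8, Ltf, Camp, Ngp and Mmp9, overlapped between the groups. Of all genes with enough counts, 24.6% had both sick KD libraries above and 23.7% below the other 6. Of all genes tested, 8.22% and 9.45% were called higher against old KO and young KD mice. The summed level of 6 monocyte markers was 9751 and 9103 CPM against 6068 to 8309 CPM, with 3 of the 6 above and Cx3cr1 below the other libraries, at 81.0 and 104 CPM against 145 to 218 CPM. Cx3cr1 was called lower in both comparisons, as were 9.93% and 11.4% of all genes tested, and 1 and 2 monocyte markers were called higher. All 16 neutrophil and monocyte markers were above 1 CPM in every library. The part of these differences in the results below was not tested. In old against young KO mice the B cell markers were also lower, with 6 of 6 called by edgeR, against 0.929% of all genes tested.

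Together the 4 RNAs took 3.04% and 4.26% of all counts on genes in sick KD mice and 1.32% to 1.67% in the other 6. Levels are given as CPM after TMM normalization over all 8 libraries. Rn7sk stood at 9337 and 9733 CPM in young KD mice, 10018 and 8147 CPM in young KO mice, 7874 and 8834 CPM in old KO mice, and 19505 and 28016 CPM in sick KD mice. Both sick KD mice were above all other mice, and the groups without disease overlapped, except that both old KO mice were below both young KD mice. The sick KD mean was 2.64 times the mean of the other 6, and the sick KD mice were further apart than the mice of any other group (23760 ± 6018 CPM, SD, n = 2).

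Rmrp stood at 2158 and 2431 CPM in young KD mice, 2275 and 1892 CPM in young KO mice, 1803 and 1888 CPM in old KO mice, and 5562 and 7669 CPM in sick KD mice. Its sick KD mean was 3.19 times the mean of the other 6, the widest gap of the 4 RNAs. Old KO mice held the lowest values, the higher of which, 1888 CPM, was just below the lower young KO value of 1892 CPM.

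Rpph1 stood at 3263 and 3616 CPM in young KD mice, 3855 and 2890 CPM in young KO mice, 3168 and 3407 CPM in old KO mice, and 7614 and 9933 CPM in sick KD mice. The 3 groups without disease overlapped, and the sick KD mean was 2.61 times the mean of the other 6.

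Terc was far less abundant, at 40.6 and 39.0 CPM in young KD mice, 42.6 and 36.4 CPM in young KO mice, 42.5 and 38.8 CPM in old KO mice, and 63.7 and 82.6 CPM in sick KD mice. Again the groups without disease overlapped and both sick KD mice stood above them. Its ratio of 1.83 between the sick KD mean and the mean of the other 6 was the smallest of the 4. Sick KD mouse 2, the younger, had the higher level of all 4 RNAs. Over all 15102 genes with enough counts, 24.6% had both sick KD libraries above the other 6 and 11.8% had a sick KD mean at least 1.5 times the mean of the others. Nothing is read from the RNAs against these shares, since they were chosen on this contrast.

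**Figure D1:**
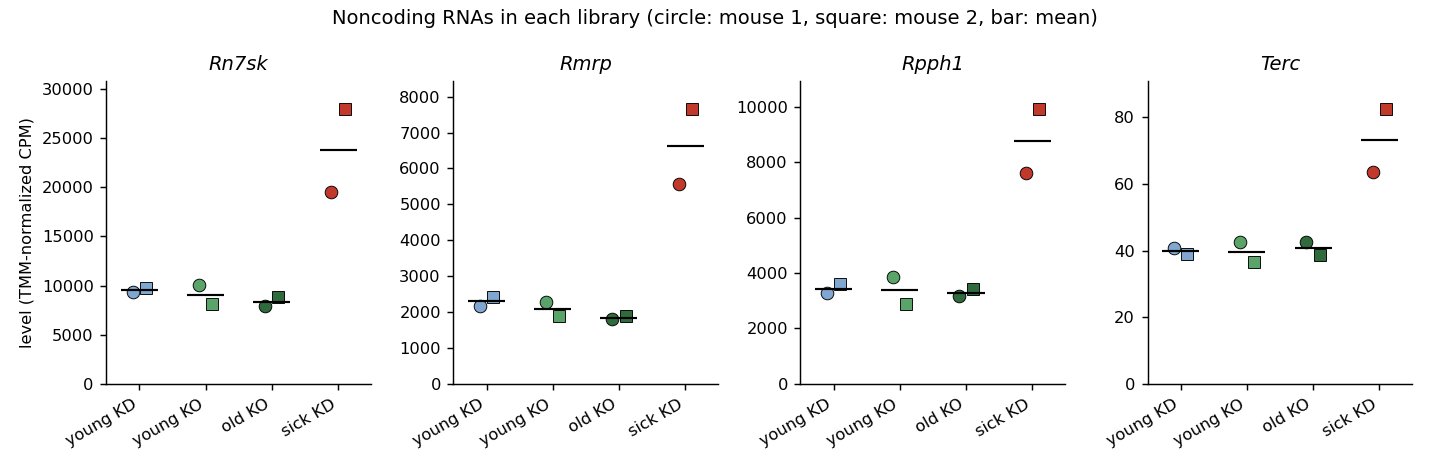
Level of each noncoding RNA in TMM-normalized CPM (y axis, linear, from 0) in the 2 libraries of each group, with a bar at the group mean. In every panel both sick KD libraries lie above the other 6, with Rn7sk at 19505 and 28016 CPM and Terc at 63.7 and 82.6 CPM.

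Per kilobase of exon the RNAs kept the same order in every library, with Rn7sk first, Rpph1 second, Rmrp next and Terc last. Outside sick KD, Rn7sk held 23788 to 30266 CPM per kilobase, Rpph1 9059 to 12086, Rmrp 6654 to 8972 and Terc 86.1 to 101. The protein partners were measured at 3.89 to 23.2 CPM per kilobase over all 8 libraries. A level in a poly(A) library does not give the abundance of an RNA without a tail in the cell.

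As log2 fold changes of the fits, without a test, sick KD against old KO gave 1.51 for Rn7sk, 1.84 for Rmrp, 1.41 for Rpph1 and 0.85 for Terc. Sick KD against young KD gave 1.31, 1.52, 1.34 and 0.87 in the same order. The 2 comparisons share the sick KD mice. In young KO against young KD mice, a comparison of healthy mice in which the RNAs could be tested, log2 fold changes were −0.08 ± 0.11 (SE) for Rn7sk, −0.14 ± 0.11 for Rmrp, −0.03 ± 0.14 for Rpph1 and −0.02 ± 0.10 for Terc (adjusted p = 1 for each, edgeR). There, 0.0404% of all 14839 genes tested were called at an adjusted p under 0.05, and 0 of the 4 RNAs had an unadjusted p under that value or were called by DESeq2. Old against young KO gave −0.12 ± 0.17 for Rn7sk, −0.18 ± 0.13 for Rmrp, −0.04 ± 0.17 for Rpph1 and 0.04 ± 0.11 for Terc, with adjusted p-values of 0.918, 0.815, 0.983 and 0.967 from edgeR, where 0.929% of 14847 genes were called. No difference by genotype or age beyond the spread between mice was detectable for the 4 RNAs in animals without disease, with 2 mice a group.

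Ratios of counts within a library do not depend on its scaling. Rpph1 per Rn7sk was 0.349 to 0.402 in the 6 libraries without disease and 0.390 and 0.355 in sick KD mice, so this ratio overlapped. Rmrp per Rn7sk was 0.285 and 0.274 in sick KD mice, above 0.214 to 0.250 in the others. Rmrp per Rpph1 was also higher in both sick KD mice, at 0.730 and 0.772 against 0.554 to 0.672. Terc per 1000 counts of Rpph1 was 8.36 and 8.32 in sick KD mice and 10.8 to 13.4 in the others, with no overlap. Terc per 1000 counts of Rn7sk gave 3.26 and 2.95 against 4.01 to 5.40. Within each library, then, Rn7sk and Rpph1 kept their proportion, Rmrp was over-represented and Terc under-represented in sick KD mice. These ratios come from the values the RNAs were chosen on and were not tested.

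**Figure D2:**
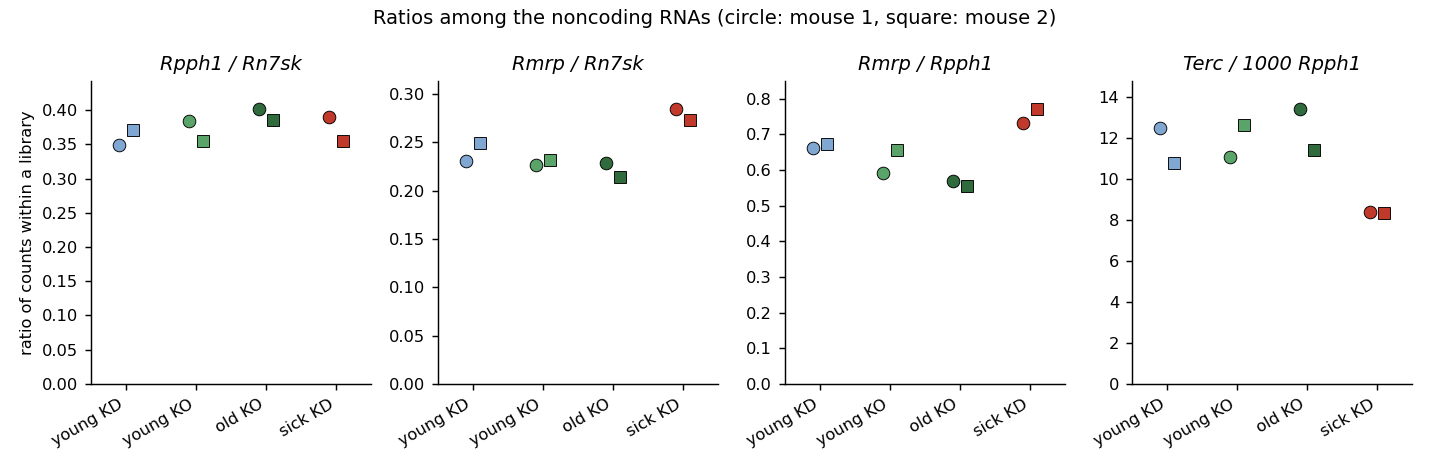
Ratio of the counts of 2 noncoding RNAs within each library (y axes from 0, no unit), with Terc given per 1000 counts of Rpph1. Rpph1 per Rn7sk overlaps between all groups, while Terc per 1000 Rpph1 is 8.36 and 8.32 in the sick KD mice and at least 10.8 elsewhere.

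Most other small RNAs of the nucleus and cytoplasm stood in the same order between the groups. With the 4 RNAs set aside, both sick KD libraries were above all others for 17 of 17 small nuclear RNA (snRNA) genes, 68 of 75 small nucleolar RNA (snoRNA) genes, 12 of 12 Cajal body RNA (scaRNA) genes and 19 of 22 genes annotated as miscellaneous RNA. The median ratio of the sick KD mean to the mean of the other 6 was 3.33 for snRNA, 2.97 for snoRNA, 2.92 for scaRNA and 2.97 for miscellaneous RNA genes. For 12940 protein-coding genes it was 0.98, and 2988 of them had both sick KD libraries on top. Long intergenic noncoding RNA genes lay between, with a median ratio of 1.29 and 104 of 291 on top. The ratios ran from 2.54 to 4.68 for snRNA, 1.40 to 6.27 for snoRNA, 2.02 to 5.68 for scaRNA and 0.104 to 4.50 for miscellaneous RNA genes. Rn7sk, Rmrp and Rpph1 thus fell inside the range of each class. Terc at 1.83 lay below every snRNA and scaRNA gene and near the low end of the snoRNA range. Of single RNAs transcribed by RNA polymerase III, Rny1, a Y RNA, had a ratio of 3.63, Rny3 of 2.46, the vault RNA Vaultrc5 of 3.38, and the signal recognition particle RNAs Rn7s1 and Rn7s2 of 3.01 and 3.34. Of RNAs made by RNA polymerase II, Rnu12, the U12 spliceosomal RNA, at 3.58 and Snora73a at 3.18 lay between these values. So did Scarna6 at 3.46, Snora73b at 3.26 and Rnu11 at 2.94, while Scarna2 at 2.02 and Scarna13 at 2.30 lay below them. Rnu6, Rnu7 and Rprl1 had no count in any library. Why these RNAs stood together was not tested.

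**Figure D3:**
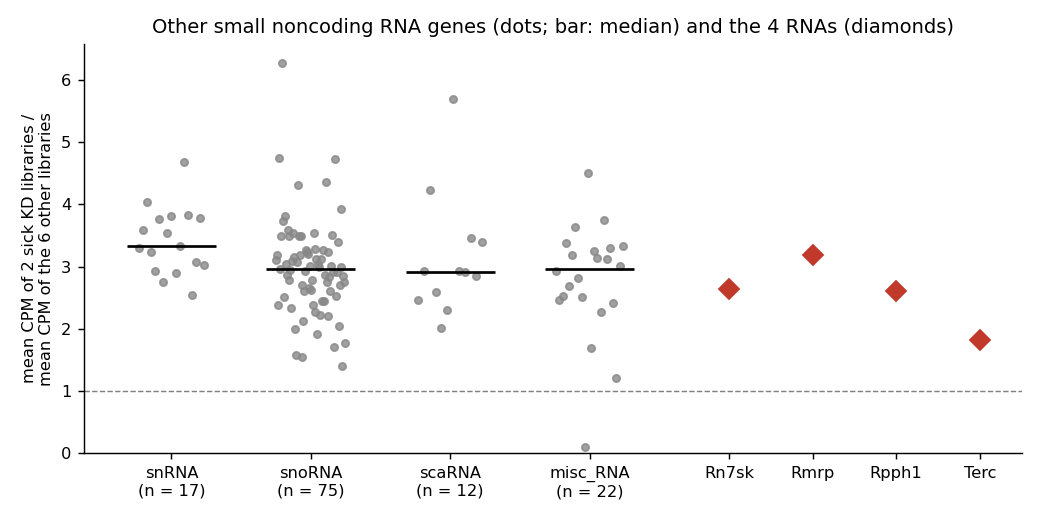
Ratio of the mean CPM of the 2 sick KD libraries to the mean CPM of the other 6 (y axis, from 0) for each gene of 4 small noncoding RNA classes (grey dots, bar at the class median) and for the 4 listed RNAs (diamonds). Rmrp at 3.19, Rn7sk at 2.64 and Rpph1 at 2.61 lie within the cloud of these classes, whose medians are 2.92 to 3.33. Terc at 1.83 lies below all snRNA and scaRNA genes and low among the snoRNA genes.

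The closest profiles were found among 10311 genes by the root-mean-square distance of centred log2(CPM + 1) values over the 8 libraries. Rn7sk was nearest to Gm26035, a miscellaneous RNA gene, at 0.08 log2 units, followed by Rn7s1, Gm24119, Hist1h4f and Snora78. Rmrp was nearest to Scarna6 at 0.07, followed by Rn7s1, Snora73a, Gm22513 and Snora73b. The nearest genes to Rpph1 were Snord17 at 0.08, Hist1h4f, Gm26035, Hist1h4c and Gm25395. The distance is not scaled by the size of a change, so it also sorts genes by that size. Those nearest to Terc were all protein-coding, namely Hist1h4i at 0.08, 2010111I01Rik, the ribonuclease inhibitor Rnh1, Hist1h2bp and H2afx. Their ratios between sick KD and the other mice were 1.63 to 1.96, near the 1.83 of Terc. Hist1h4f, Hist1h4c, Hist1h4i and Hist1h2bp encode replication-dependent histones, whose messages end in a stem-loop and not in a poly(A) tail, and H2afx, a histone variant gene, yields both kinds of message. Hist1h4i had a ratio of 1.79 between sick KD and the other mice and Hist1h4f one of 2.71. Among themselves, Rn7sk and Rpph1 were 0.07 apart, Rn7sk and Rmrp 0.13, Rmrp and Rpph1 0.16, and Terc was 0.25 to 0.38 from the others. The spread of these profiles is set mostly by the sick KD libraries, so the distances describe the same contrast.

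The protein partners moved in both directions. Mepce, which caps 7SK, fell in sick KD against old KO mice, Rpp30, a protein of RNase P and RNase MRP, rose in that comparison, and Hexim1 fell in sick KD against young KD mice. Larp7, Pop1 and Dkc1 were not called in either. Of the 6 partners, 1 rose and 1 fell in sick KD against old KO mice, where 18.1% of 14470 genes were called (8.22% higher and 9.93% lower), and 1 fell in sick KD against young KD mice, where 20.9% of 14656 genes were called (9.45% higher and 11.4% lower). With 6 partners, neither count is read as a result about them as a group.

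Mepce stood at 44.7 and 38.1 CPM in young KD mice, 42.5 and 46.8 CPM in young KO mice, 43.6 and 48.6 CPM in old KO mice, and 22.9 and 32.5 CPM in sick KD mice. Both sick KD mice were below the other 6, with mouse 1 lowest. Against old KO mice sick KD mice differed by −0.74 ± 0.18 on the log2 scale (SE, adjusted p = 0.0341, edgeR). The adjusted p rose to 0.0689 without old KO mouse 2 and to 0.0759 without sick KD mouse 1, and the log2 fold change was −0.45 after trends in GC content and length were removed. Against young KD mice it was −0.59 ± 0.19 (adjusted p = 0.0706, edgeR).

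Hexim1 stood at 53.2 and 43.0 CPM in young KD mice, 43.0 and 49.3 CPM in young KO mice, 38.2 and 47.5 CPM in old KO mice, and 31.9 and 35.6 CPM in sick KD mice. Both sick KD mice were below the other 6, although old KO mouse 1 came close. In sick KD against young KD mice the log2 fold change was −0.52 ± 0.14 (adjusted p = 0.0484, edgeR), and the call was lost without young KD mouse 1 (0.328), sick KD mouse 1 (0.118) or sick KD mouse 2 (0.0542), with the GC and length trends removed (log2 fold change −0.33, adjusted p = 0.0734) and with TMM on protein-coding genes (0.0548). Against old KO mice it was −0.35 ± 0.15 (adjusted p = 0.135, edgeR).

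Larp7, which binds the 3′ end of 7SK, stood at 48.6 to 51.8 CPM in the 6 mice without disease and at 41.4 and 39.0 CPM in sick KD mice. The groups did not overlap, yet the gene missed the threshold, with log2 fold changes of −0.32 ± 0.11 against old KO mice (adjusted p = 0.0922, edgeR) and −0.33 ± 0.11 against young KD mice (adjusted p = 0.0753, edgeR). Thus all 3 partners of 7SK had both sick KD libraries below the other 6, as did 23.7% of all genes with enough counts.

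Rpp30 stood at 19.0 and 20.8 CPM in young KD mice, 21.1 and 19.7 CPM in young KO mice, 16.2 and 18.6 CPM in old KO mice, and 28.8 and 23.9 CPM in sick KD mice. Both sick KD mice were above the other 6. In sick KD against old KO mice its log2 fold change was 0.59 ± 0.16 (adjusted p = 0.0458, edgeR). The call was lost without old KO mouse 1 (0.207), old KO mouse 2 (0.0646) or sick KD mouse 1 (0.164) and with library size in place of TMM (0.0782). Against young KD mice it was 0.40 ± 0.14 (adjusted p = 0.0921, edgeR).

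Pop1, the largest protein shared by both enzymes, stood at 19.1 to 23.5 CPM in the 6 mice without disease and at 24.7 and 23.5 CPM in sick KD mice, where the lower value lay next to that of young KO mouse 1. Its log2 fold changes were 0.29 ± 0.14 against old KO mice (adjusted p = 0.177, edgeR) and 0.22 ± 0.13 against young KD mice (adjusted p = 0.266, edgeR). Dkc1, the pseudouridine synthase that binds Terc, stood at 83.6 to 95.8 CPM without disease and at 83.2 and 87.0 CPM in sick KD mice, and the groups overlapped. It differed by −0.07 ± 0.11 on the log2 scale from old KO mice (adjusted p = 0.677, edgeR).

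In young KO against young KD mice and in old against young KO mice, 0 of the 6 partners were called by edgeR, and 0 had an unadjusted p under 0.05 in either. Their log2 fold changes there ran from −0.07 to 0.16 and from −0.23 to 0.04. DESeq2 also called 0 of 6 in both. The difference between the change from young KD to sick KD and the change from young KO to old KO was not called for any partner by edgeR (0 of 6, with 7.43% of 15102 genes called), while 4 of them had an unadjusted p under 0.05 (27.7% of all genes) and DESeq2 called 0. The nearest to the threshold was Rpp30, at 0.63 ± 0.19 (adjusted p = 0.0748, edgeR).

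**Figure D4:**
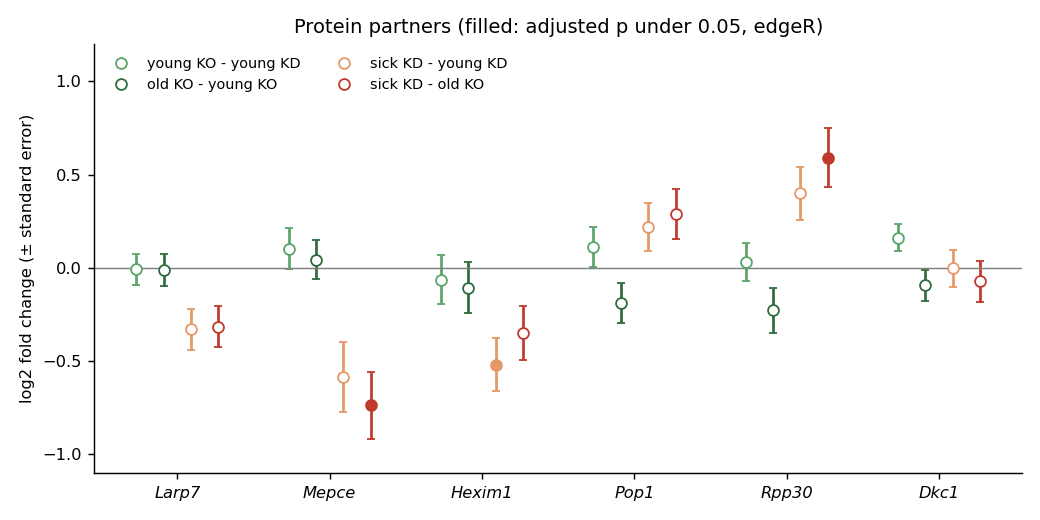
Log2 fold change of each protein partner (y axis, points) with its standard error (bars) in 4 comparisons of 2 against 2 mice. Filled points have an adjusted p under 0.05 in edgeR, which holds for Mepce (−0.74) and Rpp30 (0.59) in sick KD against old KO and for Hexim1 (−0.52) in sick KD against young KD.

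Genes of the 7SK and P-TEFb pathway included the kinase, its cyclins, the inhibitory particle and the super elongation complex, and the 15 reported here were all tested. Against old KO mice 0 of them rose and 2 fell in sick KD mice by edgeR, and against young KD mice 0 rose and 5 fell. Of all genes tested 9.93% and 11.4% fell, so that neither count of calls on 15 genes is read as a result about the list. An unadjusted p under 0.05, in either direction, was found for 7 and 9 of the 15, against 35.8% and 37.8% of all genes, and DESeq2 called 0 higher in both comparisons and 4 and 6 lower. The median log2 fold change was −0.32 and −0.40, against 0.00 and 0.01 for all genes tested. With library size in place of TMM the medians were −0.43 and −0.54, and with the GC and length trends removed −0.17 and −0.24. Fitted values were above 0 for 2 of 15 genes in each comparison, and for 6 and 5 with those trends removed.

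Mllt3, a reader subunit of the super elongation complex, stood at 17.3 to 21.6 CPM in the 6 mice without disease and at 13.7 and 13.5 CPM in sick KD mice. It fell by 0.58 ± 0.15 on the log2 scale against old KO mice (adjusted p = 0.0385, edgeR) and by 0.60 ± 0.13 against young KD mice (adjusted p = 0.0272, edgeR), and its first call was lost whichever of the 4 mice was left out (adjusted p 0.0726 to 0.157). The second was lost without young KD mouse 1 (0.218), young KD mouse 2 (0.0529) or sick KD mouse 1 (0.0502). Ccnt1, cyclin T1 of P-TEFb, stood at 96.8 to 130 CPM without disease and at 84.2 and 74.4 CPM in sick KD mice. On the log2 scale it fell by 0.55 ± 0.13 against young KD mice (adjusted p = 0.0322, edgeR), with the call lost without young KD mouse 1 (0.216) or sick KD mouse 2 (0.0642). Hexim1, Aff1 and Eaf1 made up the rest of the 5 that fell against young KD mice, the last 2 named after their values were seen. Aff1, the scaffold of a super elongation complex, stood at 149 and 143 CPM in young KD mice and at 101 and 99.9 CPM in sick KD mice, but old KO mice also held 106 and 104 CPM. It fell by 0.55 ± 0.10 (log2) against young KD mice (adjusted p = 0.0167, edgeR), and this call was lost without young KD mouse 1 (0.122) or young KD mouse 2 (0.0520). Eaf1, of the same complexes, stood at 61.0 to 72.5 CPM without disease and at no more than 52.1 CPM in sick KD mice. It fell by 0.43 ± 0.11 (log2) against young KD mice (adjusted p = 0.0383, edgeR), lost without any one of the 4 mice (0.0542 to 0.303). Cdk9, the kinase itself, stood at 50.4 to 55.5 CPM without disease and at 45.2 and 51.9 CPM in sick KD mice.

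Of 11 proteins of RNase P and RNase MRP, 10 were tested and Rpp25, with 1 to 6 counts per library, was not. Rpp30 was the only one called in sick KD against old KO mice, and 0 were called by edgeR in sick KD against young KD mice, where 3 of 10 had an unadjusted p under 0.05 (37.8% of all genes) and DESeq2 called 0. The median log2 fold change was 0.23 in both comparisons, with 7 and 9 of 10 fitted values above 0. With library size in place of TMM it was 0.11 and 0.09, and with GC and length trends removed 0.31 and 0.35. Under that removal 4 and 5 of the 10 rose. Of all protein-coding genes tested, 2457 and 3172 rose, a smaller share than in the list. Over all 8 libraries, 12940 protein-coding genes had enough counts. The median of the protein-coding genes tested also moved up, by 0.13 and 0.15, so these calls are not read as a result about the list.

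Of 12 telomerase and box H/ACA proteins, 11 were tested in sick KD against old KO mice and 12 against young KD mice. Nhp2, a box H/ACA protein, rose in both comparisons. It stood at 56.9 to 66.8 CPM in the 6 mice without disease and at 91.9 and 85.2 CPM in sick KD mice, without overlap. Its log2 fold change was 0.55 ± 0.12 against old KO mice (adjusted p = 0.0239, edgeR) and 0.59 ± 0.10 against young KD mice (adjusted p = 0.0149, edgeR). The first call was lost without old KO mouse 1 (0.168) or sick KD mouse 1 (0.0615) and the second without young KD mouse 1 (0.0891) or young KD mouse 2 (0.0672). Tert, the reverse transcriptase, was near the limit of detection, with 35 and 27 counts in young KD mice, 25 and 30 in young KO mice, 7 and 13 in old KO mice, and 4 and 9 in sick KD mice. Both older groups were below both young groups. It fell by 1.78 ± 0.43 on the log2 scale in sick KD against young KD mice (adjusted p = 0.0349, edgeR), and the call was lost in DESeq2 (0.137) and without young KD mouse 1 (0.129), young KD mouse 2 (0.0632) or sick KD mouse 1 (0.111). Between old and young KO mice its log2 fold change was −1.31 ± 0.43 (adjusted p = 0.416, edgeR), and it had too few counts to be tested in sick KD against old KO mice. Terc and Tert thus stood in opposite order between sick KD and young KD mice.

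Of 7 shelterin proteins, which cover telomere ends, 0 were called by edgeR in sick KD against old KO mice, where 3 of 7 had an unadjusted p under 0.05 (35.8% of all genes) and DESeq2 called 0. Terf1 and Pot1b had both sick KD libraries above the other 6, as did 24.6% of all genes with enough counts. Terf2 and Terf2ip had both below, as did 23.7%. All but Terf2 are named after their values were seen. The median log2 fold change was −0.03 against old KO and −0.16 against young KD mice, and 0.21 and 0.05 with the GC and length trends removed. Terf2, which holds the telomere loop closed, stood at 27.8 to 30.9 CPM without disease and at 19.9 and 22.7 CPM in sick KD mice. It fell by 0.49 ± 0.12 on the log2 scale against young KD mice (adjusted p = 0.0382, edgeR), and the call was lost without young KD mouse 1 (0.193), young KD mouse 2 (0.141) or sick KD mouse 1 (0.0777), and after removal of the GC and length trends, where the log2 fold change was −0.27 (0.0598).

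Of 33 subunits and factors of RNA polymerase III, 32 were tested and Gtf3c2 was not analysed here. Against old KO mice 3 rose and 1 fell in sick KD mice, and against young KD mice 1 rose and 2 fell, both below the shares called among all genes (18.1% and 20.9%), with median log2 fold changes of 0.04 and −0.02. The median turned to −0.08 with library size in place of TMM and to 0.12 with the GC and length trends removed in the first comparison, and to −0.16 and 0.12 in the second. With the trends removed 9 of the 32 rose and 4 fell in the first and 7 rose and 3 fell in the second. Of all protein-coding genes tested, 2457 rose and 1536 fell there in the first and 3172 rose and 1740 fell in the second. Over all 8 libraries, 12940 protein-coding genes had enough counts. These counts are not read as a result about the list. Snapc3, a subunit of the complex that binds the proximal element of snRNA and 7SK promoters, stood at 24.5 to 36.1 CPM in the 6 mice without disease and at 59.4 and 45.4 CPM in sick KD mice. It rose by 1.02 ± 0.16 on the log2 scale against old KO mice (adjusted p = 0.00952, edgeR), and this call held under each alternative, with adjusted p-values up to 0.0243. Against young KD mice it was 0.65 ± 0.17 (adjusted p = 0.0384, edgeR), which was lost without young KD mouse 1 (0.173) or sick KD mouse 1 (0.0877) and with library size in place of TMM (0.0728). Pou2f1, the octamer-binding protein Oct-1, stood at 1.23 to 2.47 CPM without disease and at 4.36 and 3.49 CPM in sick KD mice, a low level throughout. It rose by 1.36 ± 0.30 (log2) against old KO mice (adjusted p = 0.0268, edgeR), with the call lost without old KO mouse 1 (0.0798) or sick KD mouse 1 (0.108). Tbp, the TATA-binding protein that all 3 nuclear polymerases use, was the other gene that rose, and it is named after its values were seen. It stood at 34.2 to 44.3 CPM without disease and at 55.3 and 49.3 CPM in sick KD mice, and its call (log2 fold change 0.53 ± 0.12, adjusted p = 0.0301, edgeR) was lost without any of old KO mouse 1, old KO mouse 2 or sick KD mouse 1 and with library size in place of TMM (0.0545 to 0.173).

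Gtf3c4, a subunit of the factor that binds the internal promoters of transfer RNA genes, fell. It stood at 72.0 to 82.7 CPM in the 6 mice without disease and at 52.1 and 53.7 CPM in sick KD mice, without overlap. The log2 fold change was −0.55 ± 0.11 against old KO mice (adjusted p = 0.0176, edgeR) and −0.55 ± 0.11 against young KD mice (adjusted p = 0.0223, edgeR). The first call was lost without old KO mouse 1 (0.0589) or old KO mouse 2 (0.0720) and the second without young KD mouse 1 (0.167). Brf1, a subunit of the initiation factor used at those genes, stood at 42.6 to 57.1 CPM without disease and at 35.5 and 41.1 CPM in sick KD mice. It fell by 0.45 ± 0.12 (log2) against young KD mice (adjusted p = 0.0448, edgeR), and this call was lost without young KD mouse 1 (0.251), young KD mouse 2 (0.0947) or sick KD mouse 1 (0.0911) and under 3 other settings. In young KO against young KD and in old against young KO mice, edgeR and DESeq2 called 0 genes of any of these 5 lists, and 1 and 2 genes had an unadjusted p under 0.05 in edgeR.

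**Figure D5:**
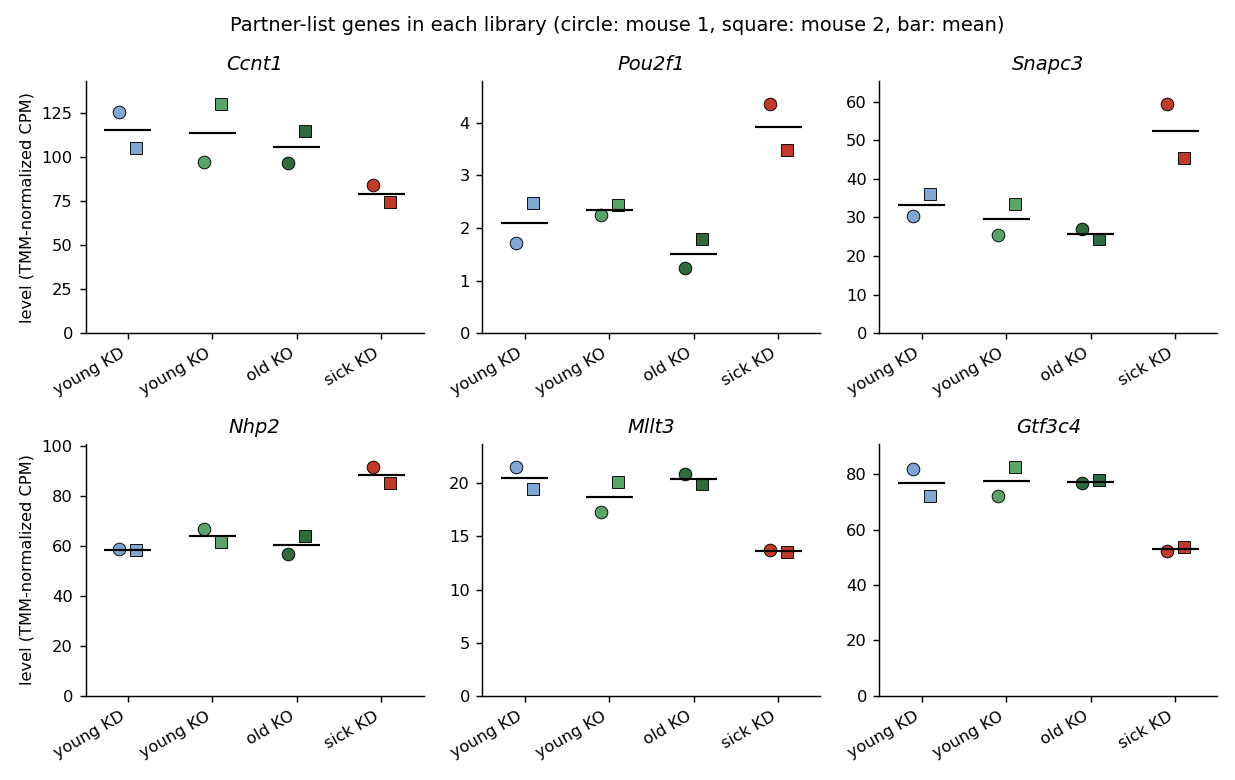
Level of 6 genes of the partner lists in TMM-normalized CPM (y axes, linear, from 0) in the 2 libraries of each group, with a bar at the group mean. In sick KD mice Pou2f1, Snapc3 and Nhp2 lie above and Ccnt1, Mllt3 and Gtf3c4 below the other 6 libraries, with Nhp2 at 91.9 and 85.2 CPM against 56.9 to 66.8 CPM.

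Of 10 genes next to or overlapping the 4 RNA genes, Ccdc107 alone had both sick KD libraries above the other 6, as the RNAs did, and 3 (Sit1, Parp2 and Fcgr1) had both below. Of the 8 that were tested, 1 was called in sick KD against old KO and 1 in sick KD against young KD mice, below the 18.1% and 20.9% of all genes. Fcgr1, an immunoglobulin receptor gene of monocytes and the nearest protein-coding gene on one side of Terc, 120468 bases away, fell by 0.97 ± 0.15 on the log2 scale against old KO mice (adjusted p = 0.00955, edgeR). Sit1, a lymphocyte adaptor gene 9054 bases from Rmrp, fell by 2.37 ± 0.31 (log2) against young KD mice (adjusted p = 0.00779, edgeR). Parp2, a DNA repair gene that starts 74 bases from Rpph1 and is transcribed away from it, stood at 54.6 to 59.6 CPM without disease and at 45.7 and 43.6 CPM in sick KD mice, the opposite order to Rpph1. Its log2 fold change was −0.33 ± 0.11 against old KO mice (adjusted p = 0.0771, edgeR). The RefSeq promoter window of Parp2 (GRCm38.p6), which includes 102 bases of Rpph1, holds TATAA 29 bases and the octamer ATTTGCAT 93 bases upstream of the first base of Rpph1. Both are read on the strand of Parp2, opposite to Rpph1. The TATAA lies between both genes. The octamer, at 50807860, lies inside Parp2 as annotated in GENCODE, which starts at 50807841. The window of Ccdc107 holds TATAA, on the strand of Ccdc107, 164 bases and ATTTGCAT, on the strand of Rmrp, 216 bases upstream of the first base of Rmrp. That window starts at 43493115 and the first base of Rmrp is 43493058, so the bases directly upstream of Rmrp were not searched. Searched on both strands, 0.597% of 32851 such windows hold both, 1.74% hold ATTTGCAT and 24.9% hold TATAA.

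Overlapping genes make some of these counts uncertain. Ccdc107 lies on the opposite strand and shares 124 of the 271 bases of Rmrp, and the strand setting of the counting is not given in the sources used here. Ccdc107 stood at 13.5 to 17.5 CPM without disease and at 19.6 and 33.0 CPM in sick KD mice, a difference of 0.76 ± 0.27 on the log2 scale from old KO mice (adjusted p = 0.0888, edgeR). An exon of Ccnb1ip1 in GENCODE M21 shares 233 of the 319 bases of Rpph1 on the same strand, and that gene had no count in any library. Reads ambiguous between genes were 0.461% and 0.516% of the unique reads in sick KD mice and 0.521% to 0.580% in the others.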

How the data were processed

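RNA-seq counts of total BM were analysed for 8 mice. Per the labels and the study's methods, libraries came from a stranded kit for poly(A) RNA, and alignment to mm10 used TopHat 2.0.10. The authors deposited the HTSeq count of each Ensembl gene, not normalized. The Ensembl release and the strand setting are not given in the sources used here. Symbols came from GENCODE M21 (40340 of 41214 identifiers). The 10 genes and all lists were chosen with earlier results of these data known, and 1 listed gene is not reported here.

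Each comparison was fitted on its own 4 mice with edgeR 4.0.16 in R 4.3.3 (TMM, filterByExpr, quasi-likelihood test, Benjamini-Hochberg adjusted p under 0.05 over all genes tested), and the difference of both changes on all 8. An SE was derived from the log2 fold change and its F statistic (size over root F). With 2 against 2 mice an exact permutation test cannot go below 0.333. Libraries held 26642067 to 42679114 counts, so counting error is small for all but low genes. No statement on separate litters was used, and p-values measure the spread between these mice.

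Alternatives were DESeq2 1.42.0, library size in place of TMM, TMM on protein-coding genes, no filter, all 8 mice in one fit, removal of trends in GC content and length (mgcv 1.9.3, protein-coding genes), a pseudocount of 5 in place of 1, and leaving out each mouse. In each list the text names the 2 genes of largest change in each direction among those called against old KO or young KD mice, the neighbours, and the 5 nearest profiles among genes of at least 5 CPM. The fits were tested on simulated counts. Protein sequences and promoter windows of the 4 RNA genes were not used here. Counts of 2 mice of a group differed by more than sampling noise (chi-square per degree of freedom 21.8 to 35.9).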

Additional observations from a re-analysis of the deposited data

Results flagged for a closer look

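The change from young to sick KD mice and the change from young to old KO mice differed in edgeR for 2 genes of the partner lists, tested as the difference itself on all 8 mice, where 7.43% of genes were called. For Mllt3 the difference was -0.712 on the log2 scale (SE 0.17, adjusted p = 0.0449), lost whichever of the 8 mice was left out (0.0664 to 0.188). For Nhp2 it was 0.681 (SE 0.13, adjusted p = 0.0297), lost without 6 of the 8 mice (0.0676 to 0.122). Disease and genotype cannot be told apart in this difference, since no KO mouse was sick and no old KD mouse was healthy.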

How the results depend on the processing

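With 2 mice a group, every call is limited. No paired analysis was possible because no label ties a mouse of one group to a mouse of another, and replicate numbers only follow the order of the samples. The direction of all called partner, list and neighbour genes held under every alternative run, and the RNA ratios of sick KD to each other group moved by less than the spread between mice under each scaling. The cause of the changes below was not tested. Counts of genes called with the trends removed, here and below, cover protein-coding genes only.

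Genes called in young KO against young KD mice (6) were 29 with DESeq2, 119 without the filter, 3 with all 8 mice in one fit and 3 with the GC and length trends removed, with 1 neighbour called by DESeq2 and 1 without the filter. In sick KD against old KO mice (2626) they were 4325 without the filter, 4200 with all 8 mice and 3993 with the trends removed. List members called there (8) were 13 with library size only, 15 without the filter, 15 with all 8 mice and 23 with the trends removed, and neighbours (1) were 2, 2, 2, 3 and 2 with DESeq2, library size, no filter, all 8 mice and the trends removed. In sick KD against young KD mice (3063) they were 4912 with the trends removed. Partners called there (1) were 2 with DESeq2, 3 with library size, 0 with TMM on protein-coding genes, 2 without the filter, 3 with all 8 mice and 2 with the trends removed. List members (11) were 17 with all 8 mice and 22 with the trends removed, and neighbours (1) were 3, 3, 3, 2 and 2 in the order above. In old against young KO mice (138) they were 382 with DESeq2, 796 without the filter (1 list member) and 84 with the trends removed. For the difference of both changes (1122) DESeq2 called 1922 genes and 6 list members (2).

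Library size in place of TMM moved the median of all genes by -0.12 and -0.14 (log2) in the sick KD comparisons. Removal of the trends moved the median of protein-coding genes by 0.13 and 0.15. The split into higher and lower calls was 1189 and 1437 against old KO mice, 868 and 2125 with library size and 2457 and 1536 with the trends removed. Against young KD mice it was 1385 and 1678, 871 and 2635, and 3172 and 1740.

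Leaving out one mouse gave 2 to 8 genes for young KO against young KD, 1221 to 2795 for sick KD against old KO (lowest without sick KD mouse 1), 1316 to 3401 for sick KD against young KD (lowest without young KD mouse 1), 17 to 307 for old against young KO (lowest without young KO mouse 2, highest without old KO mouse 2) and 106 to 1614 for the difference of both changes (lowest without young KD mouse 1). Partners called ran from 0 to 2 in both sick KD comparisons and in the difference, list members from 2 to 9, 0 to 13 and 0 to 5, and neighbours from 1 to 2, 1 to 2 and 0 to 1. The ratio of sick KD to old KO, young KD and young KO mice ran from 2.33 to 3.35, 2.05 to 2.94 and 2.15 to 3.08 for Rn7sk, 3.01 to 4.15, 2.42 to 3.34 and 2.67 to 3.68 for Rmrp, 2.32 to 3.02, 2.21 to 2.89 and 2.26 to 3.04 for Rpph1, and 1.57 to 2.03, 1.60 to 2.07 and 1.61 to 2.09 for Terc.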
